A study of Mus musculus with 2 samples.

Results

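The miR-181 family was examined in small RNA libraries of mouse helper T cells, 1 library from a control culture (Th0) and 1 from a culture driven toward the Th17 state, the helper lineage that makes interleukin-17. The family was taken as its 4 mature 5p arms, miR-181a-5p, miR-181b-5p, miR-181c-5p and miR-181d-5p, chosen by name, out of 1125 mature miRNAs listed in at least 1 library. All 4 were listed in both. Both cultures began with naive CD4+CD62L+ T cells from the spleens of female C57BL/6 mice, whose age the sources used here do not state, and both were kept in RPMI medium with 10% serum. Both received anti-CD28 (1 µg/ml), anti-IFN-γ (5 µg/ml) and anti-IL-4 (5 µg/ml), and these were the only additions named for the Th0 medium. The Th17 medium also held anti-IL-2 and anti-IL-12 (each 5 µg/ml), TGF-β (2 ng/ml), IL-6 (40 ng/ml), IL-1β (10 ng/ml) and IL-23 (40 ng/ml), and that culture ran 6 to 7 days. The sources used here do not state how long the Th0 cells were cultured. Time in culture, the Th17 cytokines and the anti-IL-2 and anti-IL-12 antibodies therefore cannot be told apart. The labels speak of triplicates, but 1 column of reads per group was analysed here, and no comparison has a replicate check.

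MicroRNAs are cut from hairpin precursors, and the arm loaded into Argonaute directs it to messages that pair with its seed, the bases near its 5′ end. In the T lineage miR-181a is best known for setting the sensitivity of the T cell receptor: it lowers phosphatases that damp receptor signalling, among them Ptpn22, Shp2 (Ptpn11), Dusp5 and Dusp6. It is abundant in immature thymocytes and lower in mature T cells, and miR-181b, c and d carry the same seed but come partly from other loci.

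The mature sequences show why the 4 arms are treated as a family and also where they differ. They are given from the RefSeq annotation of GRCm38.p6, 5′ to 3′, with the seed (bases 2 to 8) in capitals.
miR-181a-5p: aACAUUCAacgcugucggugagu
miR-181b-5p: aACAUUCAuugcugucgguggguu
miR-181c-5p: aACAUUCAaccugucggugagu
miR-181d-5p: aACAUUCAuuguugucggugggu
All 4 hold the seed ACAUUCA, and of 1679 mature mouse names in the RefSeq table no other name held it. Of the 1125 miRNAs in the libraries, 935 were matched to that table. Positions are counted from 1 at the 5′ end, with the first-named miRNA's base first. miR-181a-5p differs from miR-181b-5p by A9U, C10U and A21G over the first 23 bases. miR-181c-5p is 1 edit away from miR-181a-5p, being 1 base shorter, at 22 bases. miR-181b-5p and miR-181d-5p differ by the single substitution C12U over 23 bases. The sources used here do not state how reads shared by such near-identical members were assigned, so the division of reads between b and d, and between a and c, is uncertain to that extent.

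The 6 hairpins lie in 3 pairs. In GRCm38, which is mm10, Mir181a-1 (137966455 to 137966541) and Mir181b-1 (137966639 to 137966718) are on the plus strand of chromosome 1, 97 bases apart. Both lie inside the noncoding gene Gm4258, outside its exons, and an exon of the noncoding gene A430106G13Rik covers all 80 bases of Mir181b-1 and 11 bases of Mir181a-1. Mir181a-2 (38852735 to 38852810) and Mir181b-2 (38853830 to 38853918) are on the plus strand of chromosome 2, 1019 bases apart, opposite to Nr6a1 and outside its exons. Mir181c (84178873 to 84178961) and Mir181d (84178716 to 84178787) are on the minus strand of chromosome 8, 85 bases apart, inside Nanos3 on the same strand and outside its exons. The mature a and b arms are each listed with precursors on both chromosomes 1 and 2, so their reads cannot be divided between those loci, whereas c and d each have 1 precursor.

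**Figure D1:**
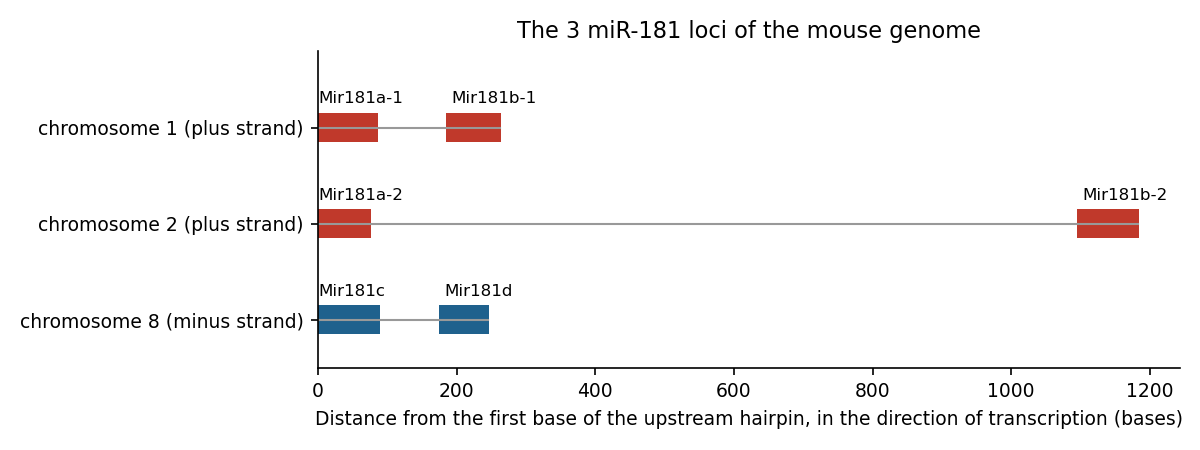
Map of the 3 miR-181 loci, to scale, with red bars for a and b hairpins, blue bars for c and d hairpins, and the x axis in bases from the start of the upstream hairpin in the direction of transcription. The a and b hairpins lie 97 bases apart on chromosome 1 and 1019 bases apart on chromosome 2, and c and d lie 85 bases apart on chromosome 8.

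The libraries held 8358010 listed reads in Th0 and 11975371 in Th17, and levels are given as counts per 1000000 listed reads of the library (CPM). Each interval is an exact 95% interval of counting error. The reads carry no molecular identifiers, so PCR copies of 1 molecule are counted separately, and the intervals cover counting error only and leave out the spread between cultures. Lymphoid miRNAs were abundant in both libraries: all 5 of a fixed list (miR-150-5p, miR-142a-3p, miR-142a-5p, miR-342-3p and miR-155-5p) were detected, with a summed level of 91147 CPM (Th0) and 114618 CPM (Th17). The 5 did not move alike. In Th17 miR-155-5p was 2.21-fold, miR-150-5p 1.24-fold and miR-142a-5p 1.13-fold higher, while miR-142a-3p was 1.90-fold and miR-342-3p 1.80-fold lower. These miRNAs mark lymphocytes and other blood cells broadly and do not separate T cells from B cells.

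The family as a whole was higher in the Th17 library. The 4 arms together took 155126 reads in Th0 and 347725 in Th17. This was 1.86% of listed reads (1.85 to 1.87%) in Th0 and 2.90% (2.89 to 2.91%) in Th17, or 18560 and 29037 CPM. The Th17 level was 1.56-fold that of Th0 (1.56 to 1.57). miR-181a-5p carried this difference: without it the sum of the other 3 arms went from 7404 to 6938 CPM and was 1.07-fold lower in Th17 (1.06 to 1.08). The size of that small decrease depended on the scaling. Its log2 ratio was -0.094, and DESeq2 size factors moved all log2 ratios up by 0.078. In a bulk library more cells of a type and more of the miRNA per cell cannot be told apart.

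The members did not move alike. miR-181a-5p, the arm with the established role in receptor sensitivity, had 93242 reads in Th0 and 264635 in Th17, or 11156 and 22098 CPM. It was 1.98-fold higher in Th17 (1.966 to 1.996), and its rank among all miRNAs was 17 in Th0 and 14 in Th17. miR-181b-5p, made from the hairpins next to those of miR-181a, had 6881 and 16085 reads, or 823 and 1343 CPM, and was 1.63-fold higher in Th17 (1.59 to 1.68). Both arms of the pair on chromosomes 1 and 2 were thus higher in Th17, a by more than b.

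The pair from chromosome 8 was not higher in Th17 in the same way. miR-181c-5p, the next most abundant member in both libraries, had 47162 reads in Th0 and 55640 in Th17, or 5643 and 4646 CPM. It was 1.21-fold lower in Th17 (1.20 to 1.23). miR-181d-5p had 7841 and 11365 reads, or 938 and 949 CPM, and its ratio of 1.01 had an interval that spanned 1 (0.983 to 1.04). The direction of miR-181d-5p depended on the scaling: its log2 ratio was 0.017 here and -0.11 with a library total that omits the 10 most abundant miRNAs.

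**Figure D2:**
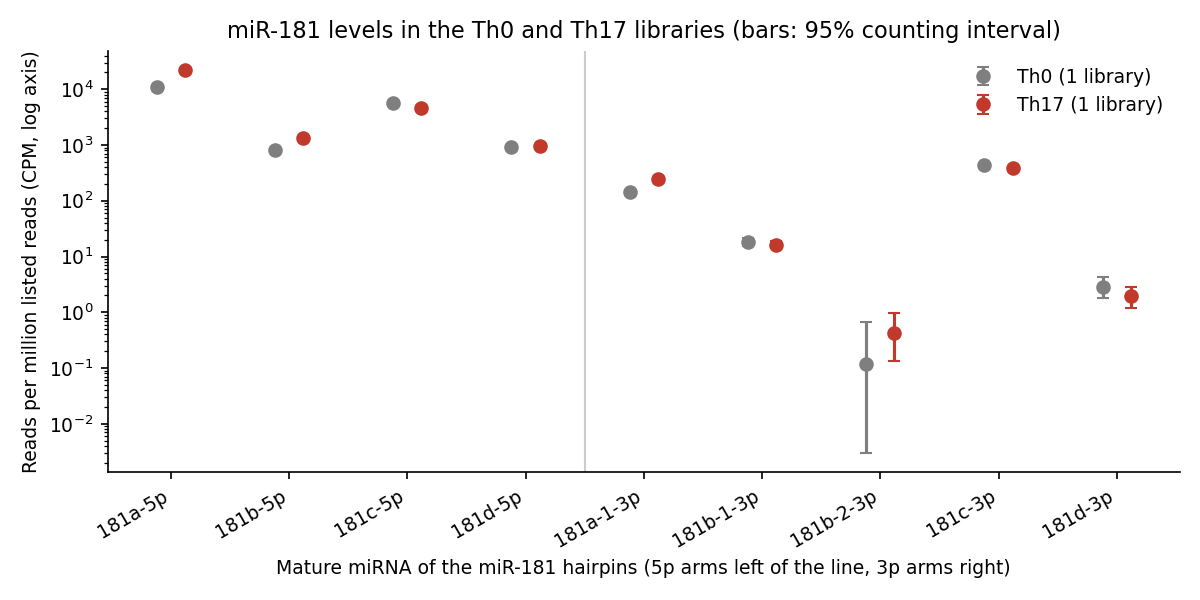
Level of each miR-181 5p and 3p arm in CPM on a log axis, with 1 point per library and bars for the 95% counting interval. Among 5p arms, a and b sit higher in Th17 (22098 against 11156 and 1343 against 823 CPM), c sits lower (4646 against 5643 CPM) and d is level; the bars are smaller than the points for all 4.

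The order of the levels changed at the low end. In Th0 it was a, c, d and b, and in Th17 it was a, c, b and d, with no overlap of counting intervals between neighbours in either library. For b and d in Th0 these were 804 to 843 and 917 to 959 CPM. In Th17 they were 1322 to 1364 and 932 to 967 CPM. Reads of different miRNAs also reflect how well each end ligates to the adapters, so the order is one of reads and not of molecules.

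As a share of family reads, miR-181a-5p went from 60.1% in Th0 (59.9 to 60.4%) to 76.1% in Th17 (76.0 to 76.2%). miR-181c-5p went from 30.4% (30.2 to 30.6%) to 16.0% (15.9 to 16.1%). The 2 minor members took small shares in both libraries, with miR-181b-5p at 4.44% and 4.63% and miR-181d-5p at 5.05% and 3.27%. All 4 arms carry the seed printed above, so the molecules whose shares differ between the libraries differ from each other outside the seed.

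**Figure D3:**
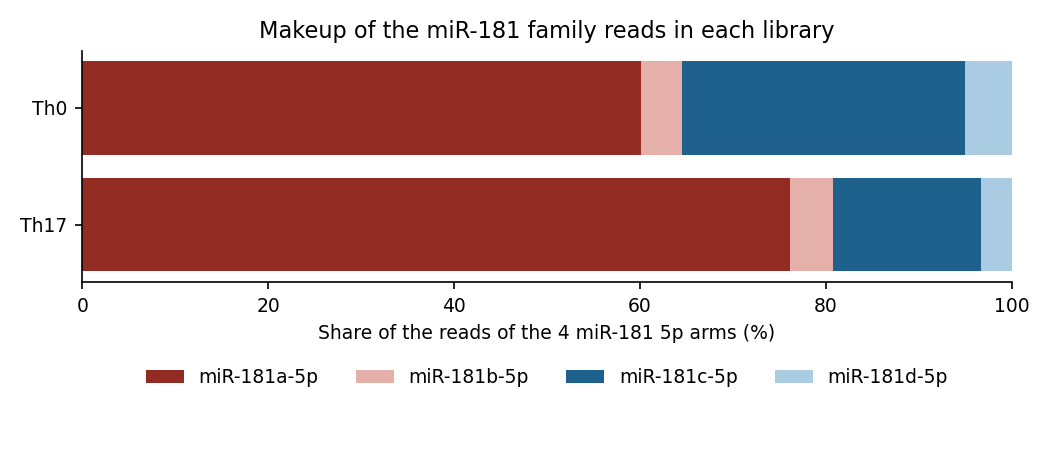
Makeup of the reads of the 4 miR-181 5p arms in each library, in percent. The miR-181a-5p segment widens from 60.1% in Th0 to 76.1% in Th17 and the miR-181c-5p segment narrows from 30.4% to 16.0%.

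Summed by cluster, a with b went from 11979 to 23441 CPM between Th0 and Th17, 1.96-fold higher in Th17 (1.94 to 1.97). c with d stood at 6581 and 5595 CPM, 1.18-fold lower in Th17 (1.16 to 1.19). The a and b arms had 1.82 reads for each c or d read in Th0 and 4.19 in Th17, a 2.30-fold change (2.27 to 2.33). Library scaling cancels in this ratio, so it is the same under any total. Of the 6 pairs of members, the ratio of a to c changed most, from 1.98 to 4.76, or 2.41-fold (2.37 to 2.44). The ratio of b to d, the pair that differs by C12U, changed from 0.878 to 1.42, or 1.61-fold (1.55 to 1.68).

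Members of the same cluster also differed from each other, though by less. The ratio of a to b was 13.6 in Th0 and 16.5 in Th17, a 1.21-fold change (1.18 to 1.25). The ratio of c to d was 6.01 in Th0 and 4.90 in Th17, a 0.814-fold change (0.789 to 0.840). All 6 pairwise changes had counting intervals that excluded 1. At this depth that says little. The intervals of single ratios excluded 1 on the higher side for 40.6% of 298 miRNAs and on the lower side for 47.7%. Pairs of other miRNAs were not examined.

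**Figure D4:**
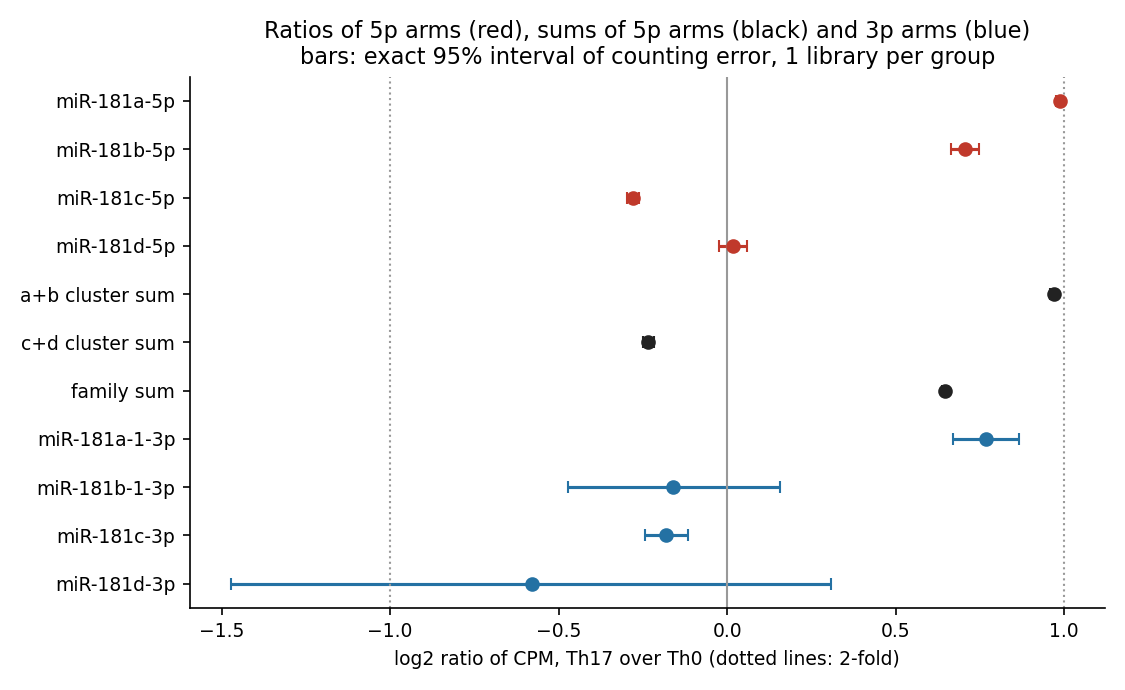
log2 ratio of CPM, Th17 over Th0, for the 5p arms (red), their sums (black) and the 3p arms with more than 10 reads in both libraries (blue), with bars for the exact 95% counting interval. The a+b sum sits at 0.97 and the c+d sum at -0.23, and the 3p arms of Mir181a-1 (0.77) and Mir181c (-0.18) lie on the same sides of 0 as their 5p partners.

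The 3p arms, usually the less stable strand of these hairpins, were counted separately and give a further measure of some of the loci. Their sequences show how far they differ; the seed is in capitals.
miR-181a-1-3p: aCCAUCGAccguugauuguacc
miR-181c-3p: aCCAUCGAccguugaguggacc
miR-181b-1-3p: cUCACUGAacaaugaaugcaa
miR-181b-2-3p: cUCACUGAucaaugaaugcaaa
miR-181d-3p: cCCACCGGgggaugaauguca
The 3p arms of Mir181a-1 and Mir181c share the seed CCAUCGA and differ by U16G and U19G. How reads shared by these 3p arms were assigned is likewise not stated, so their division is uncertain to that extent. The 3p arms of Mir181b-1 and Mir181b-2 share the seed UCACUGA and differ by A9U over the 21 bases of the shorter one. Unlike the b 5p arm, each is listed with a single precursor, on chromosome 1 or 2, but with sequences this close the division of reads between them has the same uncertainty as that between the b and d 5p arms. The 3p arm of Mir181a-2 was not analysed here.

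The 2 abundant 3p arms went the way of their 5p partners. miR-181a-1-3p, from chromosome 1, had 1216 reads in Th0 and 2967 in Th17, or 145 and 248 CPM, and was 1.70-fold higher in Th17 (1.59 to 1.82). miR-181c-3p had 3609 and 4562 reads, or 432 and 381 CPM, and was 1.13-fold lower in Th17 (1.08 to 1.18). Their ratio changed 1.93-fold (1.78 to 2.09), from 0.337 to 0.650.

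The 3p arm of Mir181b-1 did not follow this pattern. miR-181b-1-3p had 152 reads in Th0 and 195 in Th17, or 18.2 and 16.3 CPM, and the interval of its ratio of 0.895 spanned 1 (0.721 to 1.11), while its 5p partner was higher in Th17. miR-181b-2-3p had 1 read in Th0 and 5 in Th17, too few to give a direction, with a ratio of 3.49 (0.390 to 165). The arm listed for the chromosome 1 hairpin thus held 99.3% of b 3p reads in Th0 (96.41 to 99.98%) and 97.5% in Th17 (94.3 to 99.2%). These shares are of the 3p reads as assigned in the deposited counts and need not hold for the 5p arm. miR-181d-3p had 24 and 23 reads, with a ratio of 0.669 (0.361 to 1.24), and no difference was detectable at this depth.

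The positions of the arms can be seen on the hairpins of chromosome 1, printed with both mature arms in capitals.
Mir181a-1: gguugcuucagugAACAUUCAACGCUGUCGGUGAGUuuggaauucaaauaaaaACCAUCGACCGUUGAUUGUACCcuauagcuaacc
Mir181b-1: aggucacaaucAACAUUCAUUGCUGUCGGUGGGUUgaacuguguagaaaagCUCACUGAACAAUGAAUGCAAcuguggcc
In every hairpin group the 5p arm dominated among the reads counted. For a, 76.7 reads of the 5p arm were counted for each miR-181a-1-3p read in Th0 and 89.2 in Th17, a 1.16-fold change (1.09 to 1.24), with the 5p reads of both a loci in the numerator. For b, with the 5p and 3p reads of both b loci, there were 45.0 in Th0 and 80.4 in Th17. That was a 1.79-fold change (1.44 to 2.22) and the largest of the 4 among those whose interval excluded 1. For c it was 13.1 and 12.2, a 0.933-fold change (0.892 to 0.977). For d it was 327 and 494 on few 3p reads, with an interval of the change that spanned 1 (0.817 to 2.81). Among the arms counted, the 3p share was highest for c, at 7.11% in Th0 (6.89 to 7.34%) and 7.58% in Th17 (7.37 to 7.79%). For a it stood at 1.29% and 1.11%. The a share leaves out the 3p arm of Mir181a-2, while its 5p reads come from both a loci.

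Against all miRNAs, the members' ratios were of moderate size. Of the 298 miRNAs whose mean level reached 10 CPM, 6.71% passed 2-fold on the higher side in Th17 and 13.1% on the lower side, 19.8% in all, and 0 of the 4 members passed 2-fold. No test of the conditions was possible with 1 library per group. The 2-fold call of miR-181a-5p depended on the scaling, since its fold was 1.98 here and 2.09 with the median-of-ratios size factors of DESeq2. At a limit of 1.5-fold, 16.8% of the 298 were higher and 25.5% lower, and of the members 2 of 4 (a and b) were higher and 0 lower. miR-181b-5p fell short of that limit, at 1.49-fold, without the 10 most abundant miRNAs in the total. The median log2 ratio of the 4 members was 0.36, against -0.080 for all 298 miRNAs, whose middle values ran from -0.61 to 0.38 between the quartiles. Of the 298, 20 had a higher ratio than miR-181a-5p, 44 than miR-181b-5p, 139 than miR-181d-5p and 180 than miR-181c-5p. Counting intervals say little here by themselves, since they excluded 1 on the higher side for 40.6% of the 298 and on the lower side for 47.7%.

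miR-181a-5p was also compared with the abundant miRNAs alone. Where the mean level reached 1000 CPM there were 72 miRNAs, of which 9.72% passed 2-fold and 13.9% passed 1.5-fold on the higher side. The 3 of these whose log2 ratio over the 2 libraries was nearest to the 0.99 of miR-181a-5p were miR-146a-5p (1.02), miR-29a-3p and miR-99b-5p (both 1.03). miR-146a-5p is a brake on NF-κB signalling and miR-29a-3p restrains interferon-γ and T-bet. In Th17 they stood at 5161, 27051 and 2219 CPM, and miR-181a-5p at 22098 CPM. With 2 libraries this likeness is a single ratio and is a description.

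**Figure D5:**
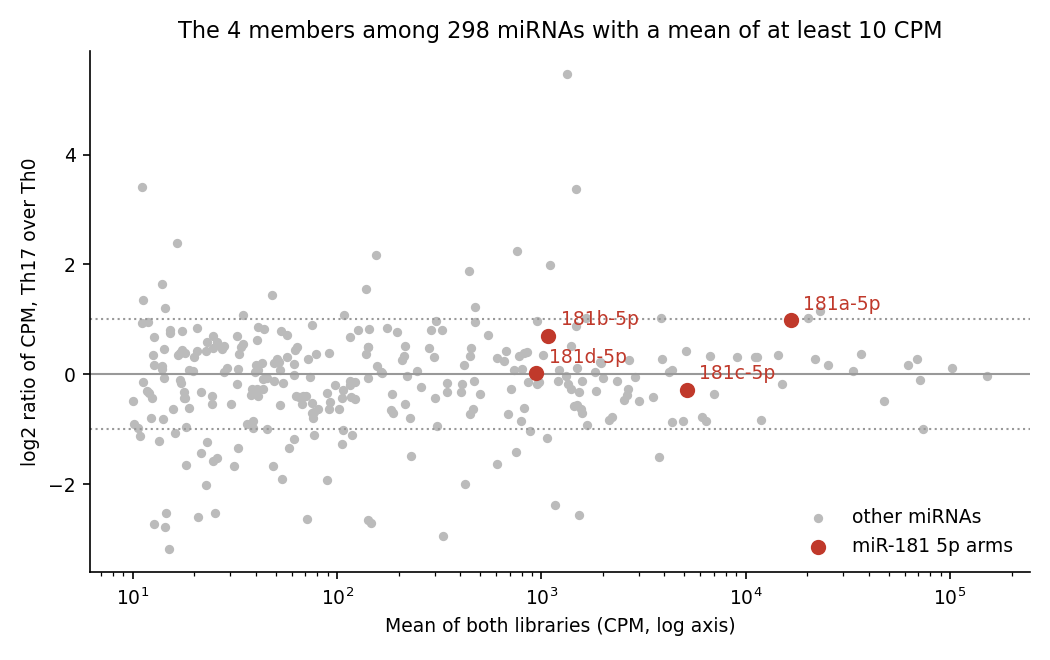
log2 ratio of CPM, Th17 over Th0, against the mean CPM of both libraries (log axis) for 298 miRNAs, with the 4 miR-181 5p arms in red and dotted lines at 2-fold. miR-181a-5p lies at 0.99, just inside the 2-fold line, with 20 miRNAs above it, and miR-181c-5p lies at -0.28.

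Other miRNAs linked to T cell receptor signalling and activation went both ways. Of a list of 14, 13 reached a mean of 10 CPM. Of these, 3 passed 2-fold on the higher side in Th17, 2 passed it on the lower side and 8 did neither, against 6.71% higher and 13.1% lower among all 298. Their median log2 ratio was 0.18. The list was chosen with earlier results of these data known, so these counts are a description and no test of the list. The 3 higher ones were miR-155-5p, which promotes Th17 differentiation, at 2.21-fold (2.20 to 2.23), miR-29a-3p at 2.04-fold (2.03 to 2.06) and miR-146a-5p at 2.02-fold (1.99 to 2.05). The 2 lower ones were miR-19b-3p, 5.88-fold lower (5.71 to 6.06), and miR-17-5p, 2.22-fold lower (2.16 to 2.29). miR-17-5p belongs to the Mir17 cluster, which drives lymphocyte proliferation. Mature miR-19b-3p has 1 hairpin in that cluster and another outside it, so its reads cannot be assigned to either. The log2 ratios nearest 0 were those of miR-21a-5p (-0.026), miR-142a-5p (0.18) and miR-182-5p (0.18). With DESeq2 size factors that of miR-21a-5p turned to 0.052, and miR-24-3p, at -0.11, was nearer 0 than the other two (0.25 and 0.26). With the 10 most abundant miRNAs left out of the total, 1 was at least 2-fold higher and 3 at least 2-fold lower. miR-214-3p was under the minimum with 1 read in Th0 and 19 in Th17.

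miRNAs linked to other cells that a spleen isolate could hold are given because some also moved between the libraries. All 3 miRNAs of a B cell-linked list (miR-125b-5p, miR-99b-5p and miR-125a-5p) were detected, and their summed level went from 1655 to 2991 CPM, 1.81-fold higher in Th17 (1.77 to 1.84), most of it from miR-99b-5p. These miRNAs are not exclusive to B cells, so their sum is no measure of B cell content. The part of other cell types in the higher levels of miR-181a-5p and miR-181b-5p was not tested. Both myeloid markers went from 3.35 to 6.93 CPM in sum, and both erythroid ones from 0.718 to 2.17 CPM. In Th0, miR-223-5p of the myeloid pair and miR-144-3p of the erythroid pair had 0 reads, which allows up to 0.359 CPM when 3 counts are taken as the limit. The 2 endothelial markers went from 191 to 85.9 CPM in sum and the 5 epithelial ones from 387 to 208 CPM, with all 7 detected in both libraries. Within the epithelial list miR-200c-3p went the other way and was 1.37-fold higher in Th17 (1.15 to 1.64). The cells that the myeloid, erythroid, endothelial and epithelial marker reads came from were not determined, so these sums are no measure of such cells.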

How the data were processed

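Small RNA libraries, 1 of Th0 and 1 of Th17 cells, were made with a TruSeq kit, size-selected on a gel and sequenced on an Illumina HiSeq, per the labels' protocols. The deposited counts are whole reads per mature miRNA, not normalized, per the file headers. The TPM values deposited by the authors are those counts over 1 total per library (9072995 and 13070648 reads), so the listed reads are 92.1% and 91.6% of it; TPM served as an alternative scaling. Per the submitters' processing notes the genome build was mm10. The sources used here do not give the aligner, annotation release, mismatches allowed or any pooling of replicates.

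Counts were divided by each library's listed total. A row missing from 1 library was taken as 0. Ratios have exact conditional (Clopper-Pearson) intervals, shares exact binomial ones and ratios of ratios exact conditional ones, at 95%, computed with scipy 1.17.1 and checked on simulated data. No p-value is given. Other scalings were TMM (edgeR 4.0.16), median-of-ratios size factors (DESeq2 1.42.0), the TPM totals and the total without the 10 most abundant miRNAs. Other settings were an added 0.5 CPM, other minimums and a 1.5-fold limit. Hairpin positions are from GENCODE M21 (GRCm38), sequences from RefSeq. miRNAs named are the 4 members, the 3p arms of their hairpins, the 3 nearest in ratio at 1000 CPM or more, fixed marker lists, and of the receptor list those past 2-fold and the 3 with log2 ratios nearest 0. miR-214-3p and miR-24-3p were named after their values were seen. The members and lists were chosen with earlier results of these data known.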

Additional observations from a re-analysis of the deposited data

How the results depend on the processing

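Of 52 alternative values, 28 stayed within the counting interval (or within 1.5 times the count), 23 moved and 1 changed sign from a value whose counting interval excluded 0. That was the family sum without miR-181a-5p, with a log2 ratio of -0.094 in place of 0.65. miR-181d-5p, whose interval spanned 0 and which is counted among the 23, also changed sign, to -0.11, without the 10 most abundant miRNAs in the total. The 28 include every ratio with 0.5 CPM added or with the TPM totals, settings that could change these ratios only slightly. Every member, cluster and family ratio with DESeq2 size factors or without the 10 most abundant miRNAs was among the 23. With DESeq2 size factors the log2 ratios were 1.06 for miR-181a-5p, 0.78 for miR-181b-5p, -0.20 for miR-181c-5p, 0.095 for miR-181d-5p, 1.05 for a with b, -0.16 for c with d and 0.72 for the family. With the total without the 10 most abundant miRNAs they were 0.86, 0.58, -0.41, -0.11, 0.84, -0.36 and 0.52 in the same order, and this scaling moved all ratios by -0.13. With TMM the family sum was 0.654, against 0.646. Relative to the median miRNA, the 5 scalings gave 1.06 to 1.07 for miR-181a-5p, 0.78 to 0.79 for miR-181b-5p, -0.21 to -0.19 for miR-181c-5p and 0.091 to 0.10 for miR-181d-5p. A library scaling shifts all log2 ratios alike and cancels in these values, so their closeness was fixed in advance and is no check. The small spread came from which miRNAs reached the minimum level. The difference between the clusters, 1.20 on the log2 scale, was 1.27 for a against c and 0.69 for b against d. The counts of 20 miRNAs at least 2-fold higher and 39 lower became 130 and 150 with no minimum, 13 and 15 at 100 CPM, and 50 and 76 at 1.5-fold; without the 10 most abundant in the total they were 15 and 49. No paired analysis was possible because each group has 1 library. Counting error limits the 3p arms of b and d.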
